A study of Mus musculus with 77 samples.

Results

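The 9 genes described here encode enzymes of methionine and one-carbon metabolism in mouse liver: Mat1a, Gnmt, Bhmt, Ahcy, Cbs, Cth, Pemt, Nnmt and Shmt1. They were chosen by name for their place in the pathway, as 9 of 55487 genes in the deposited count table. All 9 were among the 14904 genes kept after a filter on low counts. Of these 9 genes, 8 were lower in livers of obese mice with steatohepatitis than in chow-fed mice, where 22.0% of all genes tested were lower. At 24 weeks 7 of the 9 were higher with semaglutide than with vehicle (10.8% of all genes) and 9 of 9 were higher after a return to chow (17% of all genes). With semaglutide the Cth value was positive and the Bhmt value slightly negative, and neither passed the test. Hepatocyte marker genes moved in the same directions. Relative to them none of the 7 semaglutide rises at 24 weeks passed, in a separate test run on these 9 genes only.

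Methionine is the source of S-adenosylmethionine, the methyl donor of the cell, and the liver handles much of the body's methionine. Mat1a encodes the methionine adenosyltransferase of adult hepatocytes, which makes S-adenosylmethionine. The methyltransferases Gnmt, Pemt and Nnmt spend it on glycine, phosphatidylethanolamine and nicotinamide. Ahcy then splits the product S-adenosylhomocysteine into homocysteine and adenosine. Homocysteine is either remethylated to methionine, for which Bhmt takes a methyl group from betaine, or drawn by Cbs and then Cth into cysteine synthesis. Shmt1 charges cytosolic folate with a carbon unit from serine. The pathway is known in fatty liver disease because mice that lack Mat1a or Gnmt develop liver disease of their own.

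RNA was sequenced from the left lateral liver lobe of 77 male C57BL/6JRj mice, 1 library a mouse, in 10 groups. In 9 groups the mice had eaten the Gubra Amylin NASH diet (40 kcal-% fat, 22% fructose, 10% sucrose and 2% cholesterol) from 5 to 6 weeks of age for 34 weeks. This made them obese with steatohepatitis (DIO-MASH). A liver biopsy taken 4 weeks before treatment, scored for steatosis and fibrosis, decided which mice were included, so they do not stand for all mice on the diet. DIO-MASH mice stayed on the diet with vehicle (9, 8 and 7 mice at 8, 16 and 24 weeks) or with semaglutide, which activates the receptor of the gut hormone GLP-1, at 123 µg/kg subcutaneously once daily after a dose escalation (n = 7, 8 and 8). Chow reversal mice, named so in the sample labels, were switched from the diet to chow (n = 7, 8 and 8). Mice fed chow throughout and given vehicle were sampled at 24 weeks only (n = 7). Total counts per library lay between 8883190 and 37631125 with a median of 16406976, and the lowest level of any of the 9 genes in any mouse was 49.24 CPM (counts scaled to a common library size), so counting error was small beside the spread between mice. A second run of library numbers held 3 libraries, 2 of semaglutide at 16 weeks and 1 of semaglutide at 24 weeks. In these 3 predicted genes took 4.65%, 3.83% and 4.58% of the counts, against 1.55% to 3.2% in all other libraries. Without the 3 libraries 7 of the 9 genes were still called higher with semaglutide at 24 weeks, and the values at 16 weeks are given with that comparison.

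Levels are given below as CPM after TMM scaling, which compares a gene between livers but not genes of different length. Differences are log2 fold changes with their standard error from edgeR's quasi-likelihood test, fitted to all 10 groups at once, and adjusted p is the Benjamini-Hochberg value over 14904 genes with a threshold of 0.05. Semaglutide and chow reversal were each set against the same vehicle mice, so these comparisons share their controls.

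Markers of hepatocytes moved with the same comparisons. The summed level of the 9 measured hepatocyte markers (Alb, Ttr, Apoa1, Apoa2, Fgb, Serpina1c, Hnf4a, Ambp and Ahsg) was 118800 to 159500 CPM in chow-fed mice and 53290 to 78400 CPM in vehicle mice at 24 weeks, and all 9 were called lower. At 24 weeks it was 78800 to 133000 CPM with semaglutide, where 9 of 9 were called higher than in vehicle mice, and 104300 to 131400 CPM after chow reversal, where 8 of 9 were. Hepatocyte markers were the most abundant of the lists in every group, as the tissue label says. The summed level of 10 macrophage markers was 137.6 to 490.8 CPM in chow-fed mice, 1197 to 1688 CPM in vehicle mice, 643.7 to 1437 CPM with semaglutide and 147.6 to 872.3 CPM after chow reversal at 24 weeks. For 10 markers of hepatic stellate cells and fibroblasts these ranges were 149.6 to 225.5, 517.6 to 884.3, 201.5 to 527.2 and 206.1 to 471.9 CPM, and no macrophage or stellate list was at 0 in any group. In bulk tissue fewer hepatocytes and less RNA per hepatocyte cannot be told apart, so each of the 9 genes was also compared relative to the mean log2 CPM of the hepatocyte markers, as given after the comparisons.

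Each gene encodes a protein and is placed here on the GRCm38 build of the mouse genome. Their identifiers and positions are Mat1a (ENSMUSG00000037798, chr14:41105035-41124412, plus strand), Gnmt (ENSMUSG00000002769, chr17:46725664-46729168, minus), Ahcy (ENSMUSG00000027597, chr2:155059310-155074497, minus), Bhmt (ENSMUSG00000074768, chr13:93616675-93637961, minus) and Cbs (ENSMUSG00000024039, chr17:31608894-31637238, minus). The others are Cth (ENSMUSG00000028179, chr3:157894248-157925077, minus), Pemt (ENSMUSG00000000301, chr11:59970614-60046489, minus), Nnmt (ENSMUSG00000032271, chr9:48591877-48605153, minus) and Shmt1 (ENSMUSG00000020534, chr11:60788104-60811718, minus). Annotated genes overlap Gnmt, Ahcy, Bhmt and Shmt1 on the other strand and Cth on the same strand. The library kit kept strand, but whether the counting used it is not given in the sources used here, so reads there are uncertain. Bhmt has a near relative, Bhmt2, on the same strand of the same chromosome at chr13:93655720-93674302, and reads shared by the pair could be split between them.

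The promoters of 4 genes are shown because Gnmt, Ahcy and Cbs rose with semaglutide and Bhmt did not. They run from 250 bases before to 50 bases after the start in the RefSeq promoter table (GRCm38.p6), which held 6 of the 9 genes. Mat1a, Cth and Nnmt had no entry. The sequences are written 5′ to 3′ along the gene's strand, and capitals mark letters matched on either strand. The motifs were the CCAAT box, the GC box with the letters GGGCGG, the E-box with the letters CACGTG, and the nuclear receptor half-site with the letters AGGTCA. None of these matches overlap each other. The windows are chr17:46729116-46729415 for Gnmt, chr2:155074448-155074747 for Ahcy, chr17:31637156-31637455 for Cbs and chr13:93637709-93638008 for Bhmt, all on the minus strand.
Gnmt: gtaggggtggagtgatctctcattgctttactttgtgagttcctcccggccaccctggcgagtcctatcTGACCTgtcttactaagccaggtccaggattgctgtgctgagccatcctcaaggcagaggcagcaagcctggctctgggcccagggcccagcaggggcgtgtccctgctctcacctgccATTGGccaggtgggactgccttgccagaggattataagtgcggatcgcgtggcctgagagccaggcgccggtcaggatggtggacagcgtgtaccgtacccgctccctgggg
Ahcy: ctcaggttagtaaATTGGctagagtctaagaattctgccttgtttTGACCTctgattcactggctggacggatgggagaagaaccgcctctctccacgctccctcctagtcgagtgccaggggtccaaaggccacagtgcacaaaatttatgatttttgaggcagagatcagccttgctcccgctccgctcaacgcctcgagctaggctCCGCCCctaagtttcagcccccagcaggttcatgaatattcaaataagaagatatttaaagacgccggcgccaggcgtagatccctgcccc
Cbs: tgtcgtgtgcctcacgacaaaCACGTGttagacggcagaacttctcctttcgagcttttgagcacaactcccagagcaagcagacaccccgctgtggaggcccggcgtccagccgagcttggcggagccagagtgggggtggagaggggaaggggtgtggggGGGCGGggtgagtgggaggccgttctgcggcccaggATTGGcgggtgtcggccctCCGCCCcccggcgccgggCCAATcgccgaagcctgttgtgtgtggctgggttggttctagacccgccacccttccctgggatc
Bhmt: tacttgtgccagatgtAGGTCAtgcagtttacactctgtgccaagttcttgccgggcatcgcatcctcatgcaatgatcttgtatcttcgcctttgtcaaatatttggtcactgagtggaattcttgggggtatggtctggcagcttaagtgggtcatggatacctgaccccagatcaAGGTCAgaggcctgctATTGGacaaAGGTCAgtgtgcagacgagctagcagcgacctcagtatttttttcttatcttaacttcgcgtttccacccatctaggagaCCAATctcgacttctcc

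The Bhmt window held AGGTCA 3 times, at bases -234, -72 and -47 counted from the start. Of 32851 promoters in the table, 16.3% held this motif at least once and 0.183%, or 60 promoters, at least 3 times. Gnmt held it once at -181 and Ahcy once at -205, each as TGACCT on the other strand, and Cbs held none. Pemt and Shmt1, whose windows are not shown, held none either. In the 4 windows shown, a CCAAT box was present in all, against 37.4% of all promoters. A GC box was in Ahcy and Cbs, against 35.7%, and an E-box in Cbs alone, against 7.15%. TATAAA, CAAAGTCCA, TGATGNAA and TTGCNNAA were also searched on both strands and are in none of these 4 windows, against 13.6%, 0.475%, 3.97% and 10.8% of all promoters. These matches describe letters in a window and say nothing of binding.

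Per length, the genes covered a wide range in chow-fed liver. Levels were computed as counts per kilobase of exon, scaled to the same total in each liver. The length was that of all annotated exons of a gene merged, such as 7485 bases for Cbs and 5758 for Bhmt. It was not that of the transcripts present in these livers, so the order of the genes below depends on it. In chow-fed mice Gnmt stood highest at 3422 ± 571.6 (SD, n = 7), followed by Mat1a at 1705 ± 566.1, Bhmt at 1477 ± 373.0 and Ahcy at 1326 ± 142.6. The ranges of Mat1a, Bhmt and Ahcy over the mice overlapped one another. Cth at 379.5 ± 75.32, Pemt at 266.0 ± 27.69, Cbs at 179.0 ± 28.39 and Nnmt at 136.5 ± 42.13 came next, and Shmt1 was lowest at 95.77 ± 12.41. Cbs and Nnmt lay within each other's spread. In vehicle mice at 24 weeks Cth was at 127.0 ± 24.68 (n = 7) and stood below Pemt at 226.2 ± 51.25 and level with Cbs at 126.8 ± 16.63. With semaglutide at 24 weeks Ahcy at 1160 ± 148.8 (n = 8) stood above Bhmt at 653.4 ± 236.6, whereas after chow reversal Bhmt was at 1436 ± 309.9 and Ahcy at 1329 ± 285.5 (n = 8).

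**Figure D1:**
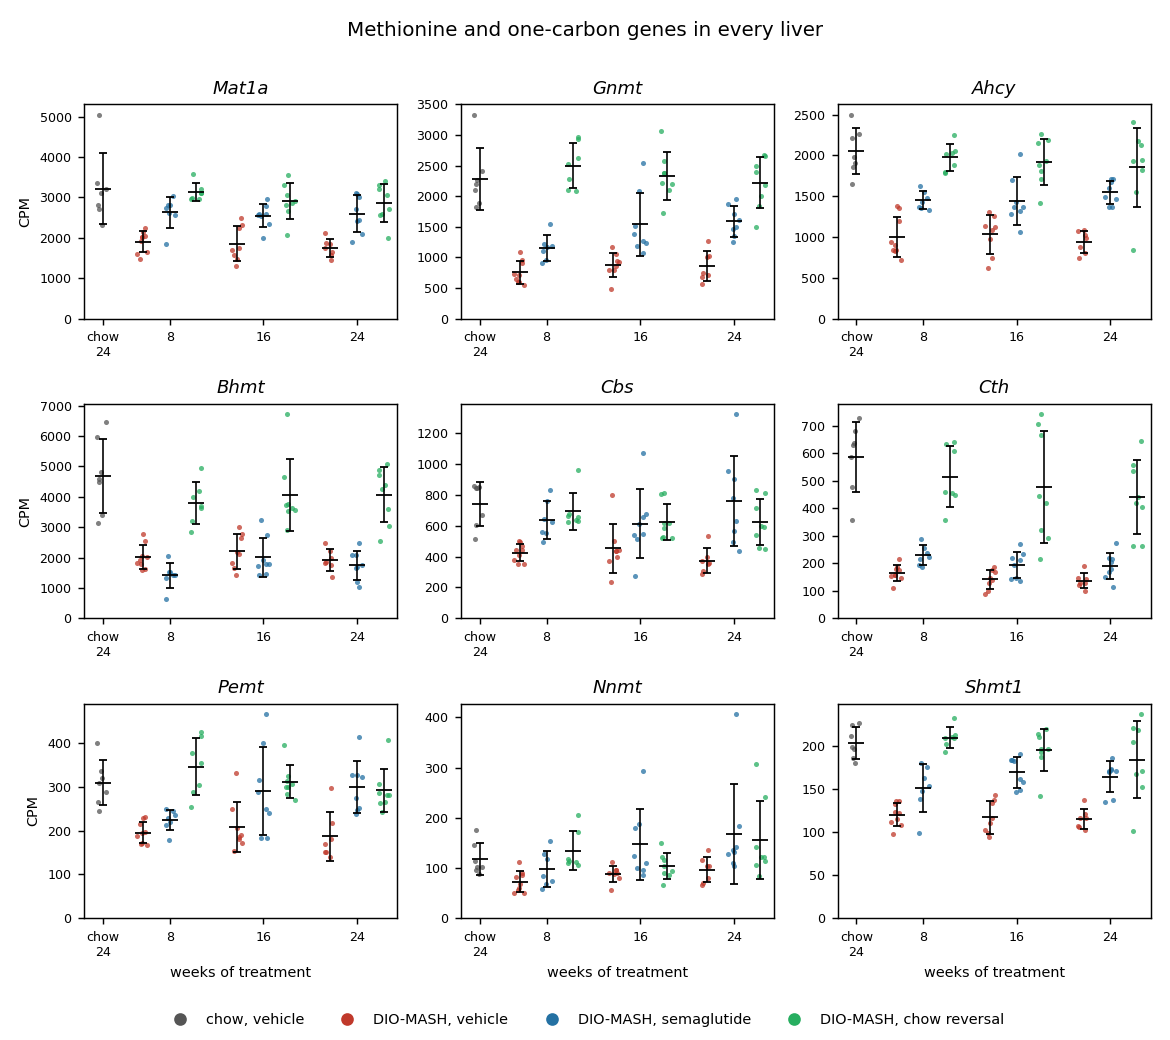
Levels of the 9 genes in each liver, in CPM after TMM scaling, 1 panel a gene, with 1 point a mouse and the mean ± SD of each of the 10 groups at 8, 16 and 24 weeks. Vehicle mice lie lowest in most panels and chow reversal mice near the chow-fed group. In the Bhmt panel the semaglutide mice at 24 weeks, 1027 to 2484 CPM, lie with the vehicle mice, 1354 to 2462 CPM.

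The first comparison set vehicle mice against chow-fed mice at 24 weeks. These groups differ in current diet as well as in disease, which cannot be told apart here. Of the 9 genes, 8 were lower in DIO-MASH livers and none was higher. Among all genes tested 22.0% were called lower and 25.8% higher. The median log2 fold change was -0.99 over the 9 genes and -0.02 over all genes. Groups did not overlap for Mat1a, Gnmt, Ahcy, Bhmt, Cth and Shmt1. The share of all genes without overlap was not computed, here or in later comparisons, so separate ranges are given only as a description.

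Cth, the lyase that releases cysteine from cystathionine, fell the most. Its level was 358.7, 628.9 and 729.4 CPM (lowest, median and highest) in chow-fed mice and 100.9, 129.8 and 191.2 CPM in vehicle mice. Every vehicle mouse thus lay below every chow-fed mouse. Its log2 fold change was -2.09 ± 0.21 (edgeR adjusted p = 1.91e-13). Cbs, which condenses homocysteine with serine in the step before Cth, ran from 515.5 through 842.0 to 860.3 CPM with chow and from 288.3 through 356.8 to 535.7 CPM with vehicle. For Cbs 6 of 7 vehicle mice lay below all chow-fed mice, and the log2 fold change was -0.99 ± 0.20 (edgeR adjusted p = 1.85e-05).

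Gnmt, the glycine N-methyltransferase that removes surplus S-adenosylmethionine, was at 1819, 2199 and 3334 CPM with chow and at 565.0, 746.3 and 1273 CPM with vehicle. No vehicle mouse reached the chow-fed range, and the log2 fold change was -1.41 ± 0.17 (edgeR adjusted p = 1.39e-10). Bhmt, the betaine-dependent remethylating enzyme, was at 3143, 4570 and 6472 CPM with chow and at 1354, 1857 and 2462 CPM with vehicle. These ranges were also separate, with a log2 fold change of -1.28 ± 0.20 (edgeR adjusted p = 9.15e-08). For Ahcy, the hydrolase of S-adenosylhomocysteine, the values were 1653, 1980 and 2499 CPM against 748.5, 984.1 and 1082 CPM. All 7 vehicle mice lay below the chow-fed mice, by -1.13 ± 0.15 (edgeR adjusted p = 1.02e-09).

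Mat1a was at 2310, 3109 and 5047 CPM with chow and at 1441, 1746 and 2112 CPM with vehicle, with no overlap and a log2 fold change of -0.88 ± 0.13 (edgeR adjusted p = 5.3e-08). Shmt1 ranged over 180.5, 199.2 and 227.7 CPM with chow and 102.2, 116.0 and 137.6 CPM with vehicle, a fall of -0.82 ± 0.11 (edgeR adjusted p = 7.01e-09). Pemt, which methylates phosphatidylethanolamine to phosphatidylcholine, fell by 0.73 on the log2 scale (SE 0.16, edgeR adjusted p = 8.12e-05), and 1 of its 7 vehicle mice, at 298.1 CPM, lay within the chow-fed range of 246.0 to 401.3 CPM. Nnmt, the nicotinamide methyltransferase, was the member that did not pass the test. Its ranges of 88.30 to 175.4 CPM with chow and 66.53 to 136.3 CPM with vehicle overlapped, at -0.29 ± 0.26 (edgeR adjusted p = 0.374), and the sign turned to 0.12 when libraries were scaled to their totals.

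Within the vehicle groups none of the 9 genes passed the test between the first and last time point. For vehicle at 24 weeks against vehicle at 8 weeks 0 of 9 genes were called by edgeR or DESeq2, against 0.792% of all genes, and 0 had an unadjusted p under 0.05. The log2 differences of the 9 genes lay between -0.26 and 0.42.

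Semaglutide was compared with vehicle at each time. The number of the 9 genes called higher was 5, 6 and 7 at 8, 16 and 24 weeks, and none was called lower. Among all genes the share called higher was 2.24%, 6.44% and 10.8% at these times, and the share called lower 3.51%, 5.8% and 13.6%. The median log2 fold change of the 9 genes was 0.47, 0.48 and 0.69. Mat1a, Gnmt, Ahcy and Shmt1 were called at all 3 times.

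Ahcy was the gene whose 24-week groups did not overlap. Its levels were 748.5, 984.1 and 1082 CPM with vehicle and 1366, 1550 and 1708 CPM with semaglutide, so that 8 of 8 treated mice lay above all vehicle mice. The log2 fold change was 0.72 ± 0.14 (edgeR adjusted p = 0.000105), after 0.54 ± 0.14 at 8 weeks and 0.48 ± 0.14 at 16 weeks. Gnmt reached 1247, 1555 and 1963 CPM at 24 weeks against 565.0, 746.3 and 1273 CPM with vehicle. Of the 8 treated mice 7 lay above every vehicle mouse, at 0.89 ± 0.17 (edgeR adjusted p = 4.97e-05).

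Cbs had the largest rise of the 9 genes at 24 weeks. Its values were 437.4, 703.7 and 1322 CPM with semaglutide against 288.3, 356.8 and 535.7 CPM with vehicle, and 6 of 8 treated mice lay above the vehicle range. The log2 fold change was 1.03 ± 0.19 (edgeR adjusted p = 4.8e-05). At 8 weeks it was 0.58 ± 0.18 (edgeR adjusted p = 0.0427), a call that 4 alternative settings ended. At 16 weeks it was 0.43 (edgeR adjusted p = 0.1), and it passed with a block on the runs of library numbers (0.62, edgeR adjusted p = 0.018) and without the second run (0.58, edgeR adjusted p = 0.049). Cth, the next enzyme, did not pass the test, with 114.9, 191.5 and 272.4 CPM with semaglutide against 100.9, 129.8 and 191.2 CPM with vehicle at 24 weeks. The ranges overlapped, and the log2 fold change of 0.47 (95% interval 0.08 to 0.86) had an edgeR adjusted p of 0.0717. At 8 and 16 weeks Cth had much the same values, 0.48 (95% interval 0.10 to 0.85, edgeR adjusted p = 0.126) and 0.46 (95% interval 0.08 to 0.83, edgeR adjusted p = 0.098). In a fit limited to the groups compared the 8-week value passed (0.48, edgeR adjusted p = 0.0087). Without the mouse that stood out in Nnmt the 24-week value was 0.57 (edgeR adjusted p = 0.032).

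Bhmt did not pass the test with semaglutide at any time, in either direction. At 8 weeks its level was 620.4, 1423 and 2038 CPM with semaglutide and 1577, 1915 and 2761 CPM with vehicle, lower on average with overlapping ranges. The log2 fold change was -0.51 ± 0.19 (edgeR adjusted p = 0.0887), which scaling to library totals moved to -0.63 (edgeR adjusted p = 0.024). At 24 weeks the level was 1027, 1723 and 2484 CPM with semaglutide and 1354, 1857 and 2462 CPM with vehicle. The treated range enclosed the vehicle range, and the difference was -0.14 (95% interval -0.51 to 0.23, edgeR adjusted p = 0.612). At 16 weeks it was -0.13 (95% interval -0.49 to 0.23, edgeR adjusted p = 0.69).

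Mat1a rose by 0.57 ± 0.13 at 24 weeks (edgeR adjusted p = 0.000595), from 1441, 1746 and 2112 CPM to 1904, 2582 and 3117 CPM, with 6 of 8 treated mice above the vehicle range. Shmt1 rose by 0.51 ± 0.11 (edgeR adjusted p = 0.000373), and Pemt by 0.69 ± 0.15 (edgeR adjusted p = 0.000611), with 7 and 4 of 8 treated mice above the vehicle range. Nnmt rose by 0.80 ± 0.25 (edgeR adjusted p = 0.0147), from 66.53, 103.2 and 136.3 CPM to 103.4, 134.0 and 407.0 CPM. The highest of these mice carried much of the Nnmt difference, since without it the log2 fold change was 0.48 (edgeR adjusted p = 0.14). With library totals as the scale it was 0.53 (edgeR adjusted p = 0.061).

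Several calls for semaglutide at 8 and 16 weeks lay close to the threshold, whereas Gnmt passed at both times in each alternative fit of the counts, as did Ahcy at 8 weeks. With scaling to library totals 3 of the 9 genes were called at each of these times. At 8 weeks these were Gnmt and Ahcy, higher, and Bhmt, lower (-0.63, edgeR adjusted p = 0.024). On that scale the median of all genes was 0.40 for vehicle against chow, where it was -0.02 with TMM, and -0.13, -0.18 and -0.24 for semaglutide against vehicle at 8, 16 and 24 weeks, where TMM put it within 0.01 of 0. At 16 weeks 2 of 8 semaglutide libraries came from a second run of library numbers, and without that run the Pemt rise was 0.39 (edgeR adjusted p = 0.16), the Nnmt rise 0.64 (edgeR adjusted p = 0.15) and the Ahcy rise 0.46 (edgeR adjusted p = 0.056).

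Chow reversal, the removal of the diet itself, raised more of these genes. Compared with vehicle, 9, 8 and 9 of the 9 genes were higher at 8, 16 and 24 weeks, with none lower. Among all genes 14.2%, 12.1% and 17% were called higher and 17.9%, 16.2% and 19.1% lower. At 8 weeks all genes but Nnmt had groups that did not overlap. The median log2 fold change of the 9 genes was 0.89, 0.74 and 0.74.

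Gnmt and Cth rose the most. At 8 weeks Gnmt was at 2084, 2520 and 2972 CPM after reversal and at 543.7, 706.4 and 1097 CPM with vehicle, and Cth at 356.6, 459.1 and 641.3 CPM against 111.3, 158.2 and 215.3 CPM. No reversal mouse lay within the vehicle range for these genes. The log2 fold changes at 8, 16 and 24 weeks were 1.73, 1.41 and 1.37 for Gnmt and 1.64, 1.75 and 1.68 for Cth (edgeR adjusted p = 5.97e-10 for Gnmt and 3.73e-10 for Cth at 24 weeks). Bhmt was at 2550, 4320 and 5073 CPM at 24 weeks, above all vehicle mice, with log2 fold changes of 0.91, 0.88 and 1.08 ± 0.19 (edgeR adjusted p = 5e-06 at 24 weeks).

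Ahcy rose by 0.98, 0.90 and 0.98 on the log2 scale at 8, 16 and 24 weeks and Mat1a by 0.72, 0.65 and 0.71. At 24 weeks 7 of 8 reversal mice lay above the vehicle range for each. Cbs rose by 0.74 ± 0.19 (edgeR adjusted p = 0.00131), Pemt by 0.64 ± 0.15 (edgeR adjusted p = 0.000544) and Shmt1 by 0.68 ± 0.11 (edgeR adjusted p = 9.22e-07) at 24 weeks. Nnmt rose by 0.89 at 8 weeks and 0.68 ± 0.25 at 24 weeks (edgeR adjusted p = 0.0263), but was at 0.23 at 16 weeks (edgeR adjusted p = 0.52), where scaling to library totals turned it to -0.02. Its 24-week call was lost with library totals (0.41, edgeR adjusted p = 0.14) and in a fit limited to the groups compared (0.68, edgeR adjusted p = 0.067). The 16-week Cbs call (0.46, edgeR adjusted p = 0.047) was lost under 4 alternative settings.

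Whether an effect grew with time was tested as the effect at 24 weeks minus that at 8 weeks. Neither edgeR nor DESeq2 called any of the 9 genes for semaglutide, against 0.0604% of all genes, or for chow reversal, against 0.215%. Counts at an unadjusted p under 0.05 were 1 for semaglutide, where the effect on Pemt was larger by 0.49 ± 0.21 at 24 weeks (edgeR adjusted p = 0.97), and 0 for chow reversal. The rise from 5 to 7 called genes with semaglutide is therefore not shown to be a change in any single gene.

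**Figure D2:**
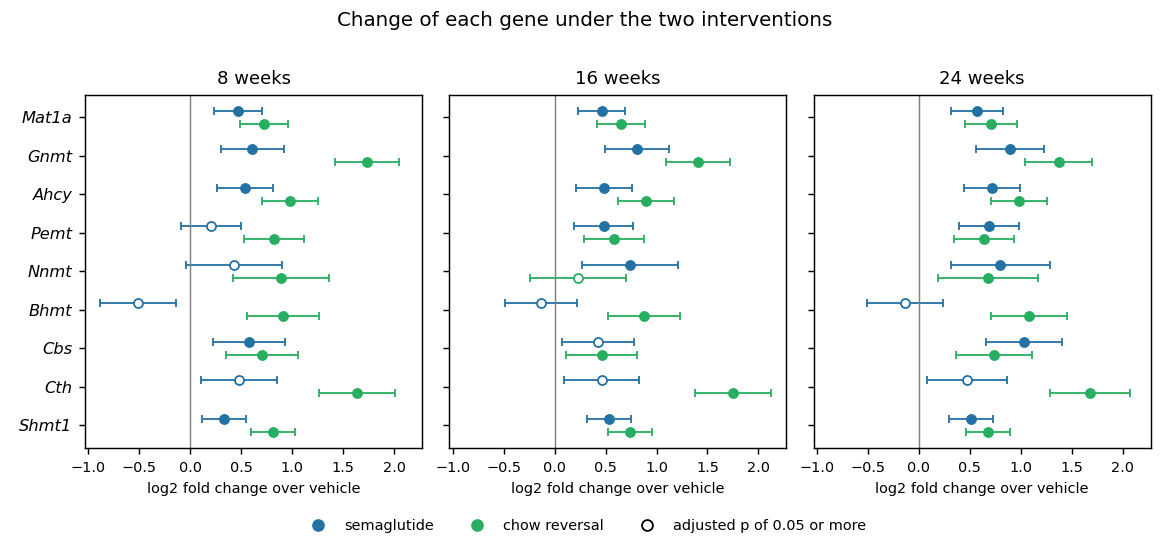
Log2 fold change over vehicle for each of the 9 genes with semaglutide and with chow reversal at 8, 16 and 24 weeks. Bars are 95% intervals, and open points have an edgeR adjusted p of 0.05 or more. Bhmt lies at -0.51, -0.13 and -0.14 with semaglutide and at 0.91, 0.88 and 1.08 with chow reversal, while the Mat1a intervals of the interventions overlap at all times.

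The interventions were then set against each other at matched times. With semaglutide 6, 4 and 3 of the 9 genes were lower than after chow reversal at 8, 16 and 24 weeks, and none was higher. Among all genes 2.64%, 3.56% and 8.72% were called lower. Gnmt, Bhmt and Cth were called at all 3 times. At 8 weeks all 7 semaglutide mice lay below all 7 reversal mice for each of the 6 genes called.

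The differences in Bhmt and Cth were the largest of the 9 genes at each time. At 8 weeks semaglutide mice had 620.4, 1423 and 2038 CPM and reversal mice 2850, 3687 and 4945 CPM, and at 24 weeks the values were 1027, 1723 and 2484 CPM against 2550, 4320 and 5073 CPM. The groups were separate at both times. In time order the log2 difference was -1.42 ± 0.20, -1.01 ± 0.18 and -1.22 ± 0.18 (edgeR adjusted p = 2.07e-07, 6.31e-05 and 1.27e-06). For Cth it was -1.17 ± 0.21, -1.29 ± 0.19 and -1.21 ± 0.19 (edgeR adjusted p = 4.67e-05, 1.01e-06 and 3.44e-06), and 7 of 8 semaglutide mice lay below all reversal mice at 24 weeks.

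Gnmt was lower by -1.11 ± 0.17, -0.60 ± 0.16 and -0.48 ± 0.16 in the same order (edgeR adjusted p = 2.68e-06, 0.00809 and 0.0292). The 24-week ranges of 1247 to 1963 CPM with semaglutide and 1496 to 2679 CPM after reversal overlapped, and the call was lost without 1 reversal mouse (-0.43, edgeR adjusted p = 0.054). It was also lost without a filter on low counts (-0.50, edgeR adjusted p = 0.051). In a fit limited to the groups compared the Gnmt calls at 16 and 24 weeks were lost (-0.58 and -0.46, edgeR adjusted p = 0.057 and 0.078). At 8 weeks Pemt (-0.63 ± 0.16, edgeR adjusted p = 0.00736) and Shmt1 (-0.47 ± 0.11, edgeR adjusted p = 0.00473) were also lower with semaglutide. Ahcy was called at 8 weeks (-0.45 ± 0.15, edgeR adjusted p = 0.0491) and 16 weeks (-0.41 ± 0.14, edgeR adjusted p = 0.0392), and each call was lost without 1 of several single mice, with edgeR adjusted p between 0.052 and 0.12. Mat1a, Cbs and Nnmt passed the test at none of the times, and for Mat1a the 24-week difference was -0.13 ± 0.12 (edgeR adjusted p = 0.454).

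Against chow-fed mice at 24 weeks, semaglutide mice remained lower in 5 of the 9 genes, where 13.5% of all genes were called lower. Cth was at 114.9 to 272.4 CPM against 358.7 to 729.4 CPM and Bhmt at 1027 to 2484 CPM against 3143 to 6472 CPM, without overlap. Their log2 differences were -1.62 ± 0.20 and -1.43 ± 0.19 (edgeR adjusted p = 9.2e-10 and 9.3e-09). Gnmt (-0.52, edgeR adjusted p = 0.0105), Ahcy (-0.41, edgeR adjusted p = 0.0205) and Shmt1 (-0.31, edgeR adjusted p = 0.0262) had smaller differences. With library totals the Ahcy and Shmt1 calls were lost (-0.22 and -0.11, edgeR adjusted p = 0.13 and 0.48). Without the chow-fed mouse with the highest Gnmt the Gnmt and Ahcy calls were lost (-0.41 and -0.35, edgeR adjusted p = 0.052 and 0.054), which left 3 genes called. The Shmt1 call was lost without the chow-fed mouse with the highest Mat1a (-0.27, edgeR adjusted p = 0.068) or the semaglutide mouse with the highest Nnmt (-0.26, edgeR adjusted p = 0.075).

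Between chow reversal and chow-fed mice none of the 9 genes passed the test at 24 weeks. edgeR and DESeq2 called 0 of 9, where edgeR called 6.63% of all genes in either direction, and 1 gene, Cth, had an unadjusted p under 0.05. Cth was at 262.3, 429.3 and 645.5 CPM after reversal and at 358.7, 628.9 and 729.4 CPM with chow, ranges that overlap. The log2 differences of the 9 genes ran from -0.41 ± 0.20 for Cth to 0.40 ± 0.25 for Nnmt, so smaller differences than these may have gone unseen.

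Relative to the hepatocyte markers the picture narrowed to a few genes. For each liver the mean log2 CPM of the 9 markers was subtracted from the log2 CPM of each gene, and groups were compared with a two-sided exact permutation test, with Benjamini-Hochberg adjustment over 108 tests. This comparison was added after the data had been seen. It was run for the 9 genes only, so its counts have no share of all genes beside them. The test used only the groups compared, unlike the edgeR fit of all groups, so a gene that did not pass may still differ. The marker mean itself differed by -0.97 for vehicle against chow, by 0.48, 0.39 and 0.69 for semaglutide against vehicle at 8, 16 and 24 weeks, and by 0.78, 0.63 and 0.77 for chow reversal against vehicle.

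For vehicle against chow, 3 genes differed from the markers. Cth was lower by -1.11 (exact permutation adjusted p = 0.009) and Gnmt by -0.47 (exact permutation adjusted p = 0.023), and Nnmt was higher by 0.68 (exact permutation adjusted p = 0.014). The other 6 genes, which were called lower in CPM, differed from the markers by between -0.29 for Bhmt and 0.21 for Pemt, and none passed. For Mat1a the value was 0.12 (exact permutation adjusted p = 0.77) and for Cbs -0.02 (exact permutation adjusted p = 0.94).

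For semaglutide against vehicle, Bhmt fell relative to the markers by -1.03 at 8 weeks and -0.86 at 24 weeks (exact permutation adjusted p = 0.0047 and 0.04). At 16 weeks it was at -0.54 (exact permutation adjusted p = 0.2). The mean Bhmt level lay -0.81 log2 units from the marker mean in vehicle mice at 8 weeks and -1.84 in semaglutide mice. Pemt was lower at 8 weeks by -0.28 (exact permutation adjusted p = 0.0031), and Gnmt was higher at 16 weeks by 0.40 (exact permutation adjusted p = 0.007). Mat1a, Ahcy, Cbs, Cth, Nnmt and Shmt1 passed at no time, with differences between -0.24 and 0.28.

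For chow reversal against vehicle, Gnmt was higher than the markers by 0.98, 0.81 and 0.62 and Cth by 0.86, 1.04 and 0.87 at 8, 16 and 24 weeks. All 6 values passed, with exact permutation adjusted p between 0.0031 and 0.033. Bhmt rose by about as much as the markers, and its values of 0.14, 0.26 and 0.29 did not pass. Nnmt was lower at 16 weeks by -0.41 (exact permutation adjusted p = 0.016).

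Gnmt, Bhmt and Cth differed between semaglutide and chow reversal on this scale too. The differences were -0.82, -0.41 and -0.38 for Gnmt, -1.17, -0.79 and -1.15 for Bhmt and -0.85, -0.98 and -1.10 for Cth at 8, 16 and 24 weeks. All 9 values passed, with exact permutation adjusted p between 0.0034 and 0.04. The marker mean differed by -0.30, -0.23 and -0.09 in the same comparisons. Relative to chow-fed mice, semaglutide mice were lower in Bhmt by -1.15 (exact permutation adjusted p = 0.0077) and in Cth by -1.35 (exact permutation adjusted p = 0.0057), and higher in Pemt by 0.23 and in Nnmt by 0.69. No gene passed for chow reversal against chow.

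**Figure D3:**
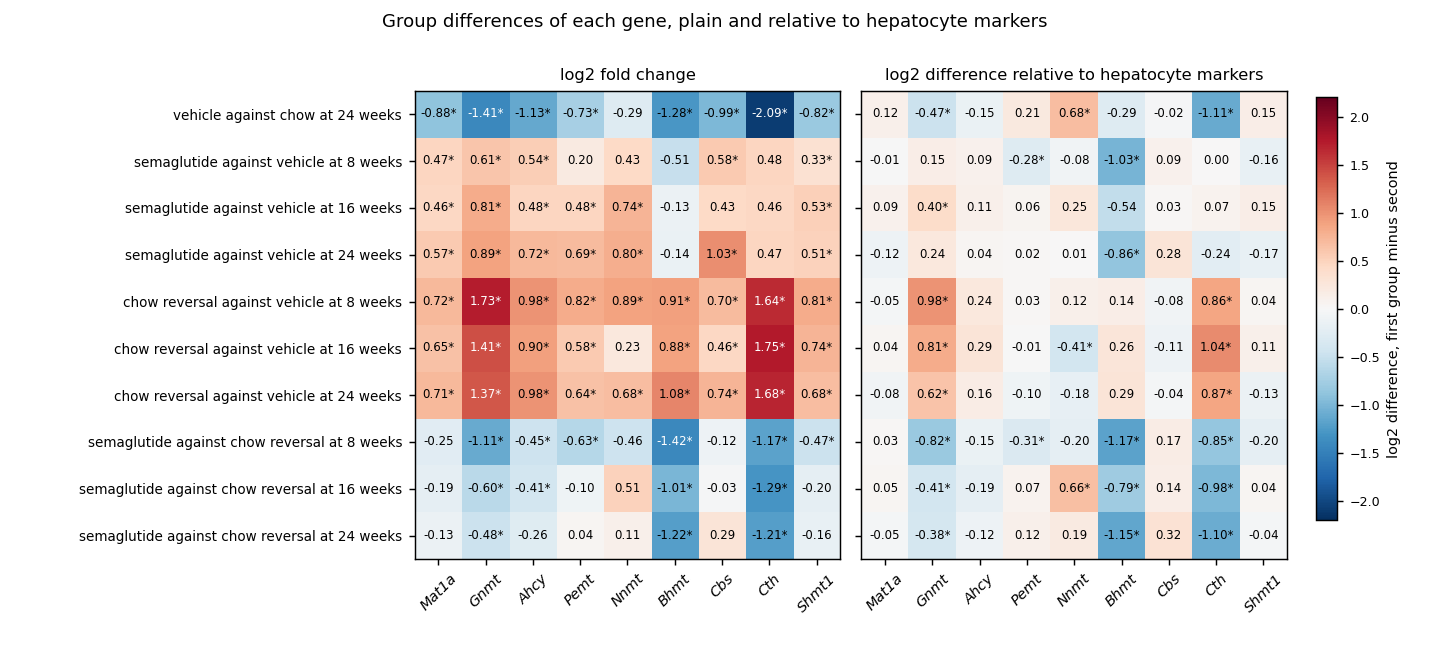
Differences between groups for the 9 genes (columns) in 10 comparisons (rows), as log2 fold change on the left and as the difference relative to the mean of 9 hepatocyte markers on the right. Stars mark adjusted p under 0.05, from edgeR on the left and from the exact permutation test on the right. On the right most cells are pale, while Gnmt and Cth stay high with chow reversal. Bhmt with semaglutide against vehicle is at -0.51, -0.13 and -0.14 on the left, where none passed. On the right it is at -1.03, -0.54 and -0.86, where the middle value did not pass.

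Mat1a has a counterpart, Mat2a, which encodes the methionine adenosyltransferase of most other tissues and of growing or injured liver. Mat2a was at 46.00, 67.92 and 86.69 CPM in chow-fed mice and at 58.11, 89.15 and 95.07 CPM in vehicle mice at 24 weeks, overlapping, with a log2 fold change of 0.29 ± 0.12 (edgeR adjusted p = 0.0522). Scaling to library totals made it 0.71 (edgeR adjusted p = 2.4e-05). The ratio of the pair within a liver does not depend on this scaling. Since Mat1a is a hepatocyte gene and Mat2a is made by other cells as well, the part of cell makeup in the ratio was not tested.

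The log2 ratio of Mat1a to Mat2a was 5.57 ± 0.33 (SD, n = 7) with chow and 4.43 ± 0.27 (n = 7) with vehicle at 24 weeks. No vehicle liver reached the chow-fed range, which began at 5.26, and the difference was -1.14 (two-sided exact permutation test over 3432 splits, adjusted p = 0.0025 over 13 comparisons). Semaglutide raised the ratio by 0.52, 0.50 and 0.78 at 8, 16 and 24 weeks (exact permutation adjusted p = 0.02, 0.044 and 0.0069), with overlapping ranges. Taken as a difference of medians the values at 8 and 16 weeks did not pass (0.39 and 0.53, exact permutation adjusted p = 0.11 and 0.065). Chow reversal raised it by 1.10, 0.79 and 0.89 (exact permutation adjusted p = 0.0011, 0.002 and 0.0025), and at 8 weeks its range of 5.29 to 5.91 lay wholly above that of vehicle, 4.17 to 4.98. Semaglutide was lower than reversal at 8 weeks by -0.57 (exact permutation adjusted p = 0.015), whereas the differences of -0.29 and -0.11 at 16 and 24 weeks did not pass (exact permutation adjusted p = 0.15 and 0.56).

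**Figure D4:**
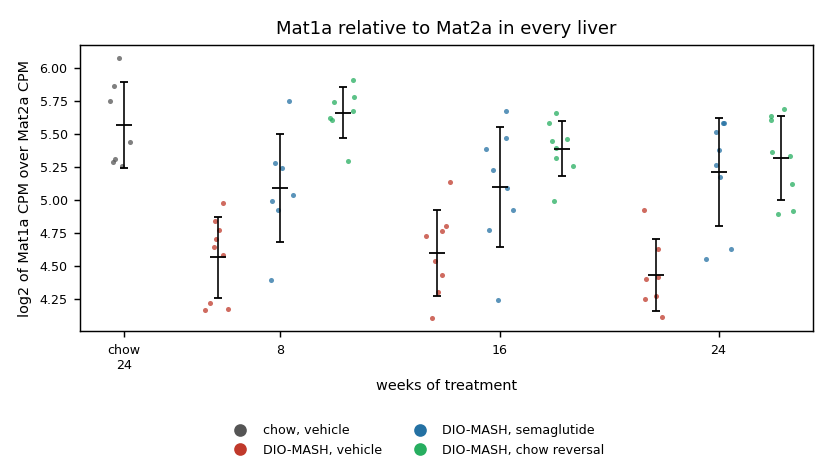
The log2 ratio of Mat1a to Mat2a in each liver by group, with 1 point a mouse and the mean ± SD. Vehicle groups center on 4.57, 4.60 and 4.43 at 8, 16 and 24 weeks, chow reversal groups on 5.66, 5.39 and 5.32, and semaglutide groups lie between them at 5.09, 5.10 and 5.21.

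The neighbouring steps of the pathway were read from 10 gene lists holding 109 genes, of which 108 were tested. In vehicle against chow 50 of these (46.3%) were lower and 14 higher, beside 22.0% and 25.8% of all genes. With semaglutide 4, 19 and 26 were higher and 3, 2 and 10 lower at 8, 16 and 24 weeks, and with chow reversal 38, 37 and 38 were higher and 16, 11 and 10 lower. As shares higher these are 3.7%, 17.6% and 24.1% with semaglutide, beside 2.24%, 6.44% and 10.8% of all genes, and 35.2%, 34.3% and 35.2% with chow reversal, beside 14.2%, 12.1% and 17% of all genes. The semaglutide shares at 8 weeks, also for lower genes (2.78% beside 3.51%), were near those of all genes. Of all genes 5.8% and 13.6% were lower with semaglutide at 16 and 24 weeks. With chow reversal 17.9%, 16.2% and 19.1% of all genes were lower at 8, 16 and 24 weeks. The list of betaine, sarcosine and glycine breakdown, into which the product of Bhmt flows, had 9 of 10 genes lower in vehicle mice.

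Dmgdh, the mitochondrial enzyme that oxidizes the dimethylglycine made by Bhmt, was like Bhmt called lower in vehicle mice and higher after reversal. In the main fit neither gene was called with semaglutide, where the Bhmt values were negative and those of Dmgdh positive. Its mean was 765.6 CPM with chow, 283.7 CPM with vehicle, 345.9 CPM with semaglutide and 643.8 CPM after reversal at 24 weeks. It was lower in vehicle than in chow-fed mice (-1.43 ± 0.13, edgeR adjusted p = 1.3e-15) and rose with chow reversal (1.18 ± 0.12 at 24 weeks, edgeR adjusted p = 3e-12). With semaglutide it was at 0.08, 0.17 and 0.29 ± 0.12 at 8, 16 and 24 weeks (edgeR adjusted p = 0.78, 0.36 and 0.072), and it was lower than after reversal by -0.90 ± 0.12 at 24 weeks (edgeR adjusted p = 3.1e-08). Sardh, which takes sarcosine in the next step, was at 0.34 and 0.25 with semaglutide at 8 and 16 weeks (edgeR adjusted p = 0.18 and 0.28) and rose by 0.62 ± 0.16 at 24 weeks (edgeR adjusted p = 0.0023). Pipox, a peroxisomal sarcosine oxidase, rose by 0.67, 0.70 and 0.89 (edgeR adjusted p = 2.4e-05, 1.5e-05 and 3.8e-08).

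Bhmt2, the relative of Bhmt that uses S-methylmethionine, was lower in vehicle than in chow-fed mice by 0.71 on the log2 scale (SE 0.08, edgeR adjusted p = 7.8e-11). Unlike the values for Bhmt, its log2 fold change with semaglutide was 0.27 at 16 weeks and 0.40 ± 0.08 at 24 weeks (edgeR adjusted p = 0.019 and 0.0002), and 0.49 ± 0.08 with chow reversal at 24 weeks. Of the 12 genes in its list of further methionine cycle genes, 4 (33.3%) were lower and 2 (16.7%) higher in vehicle mice, beside 22.0% and 25.8% of all genes.

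Of the list of cysteine, sulfur and glutathione genes, 7 of 11 (63.6%) were lower and 2 higher in vehicle mice, beside 22.0% and 25.8% of all genes. Cdo1, which oxidizes cysteine toward taurine, fell by 0.97 on the log2 scale (SE 0.12, edgeR adjusted p = 9.9e-11). It rose with semaglutide by 0.64, 0.48 and 0.75 (edgeR adjusted p = 4.5e-05, 0.0022 and 9.2e-07) and with chow reversal by 0.74, 0.75 and 0.73, and at 24 weeks the interventions differed by 0.03 ± 0.11 (edgeR adjusted p = 0.88). Of 20 folate genes 7 (35%) were lower and 2 (10%) higher in vehicle mice, beside the same 22.0% and 25.8%. Mthfd1, which interconverts the folate carbon units that Shmt1 makes, fell by 0.94 on the log2 scale (SE 0.11) and rose with semaglutide by 0.46, 0.38 and 0.50 (edgeR adjusted p = 0.002, 0.0094 and 0.00027).

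Phospholipid and cofactor genes held further contrasts. Pcyt2, of the phosphatidylethanolamine route that feeds Pemt, fell by 0.73 on the log2 scale and rose with semaglutide by 0.74 ± 0.16 at 24 weeks (edgeR adjusted p = 0.00033), and was the gene whose group means ran closest to those of Pemt. In the list of vitamin B6 and B12 genes, 5 of 9 were lower in vehicle mice and none higher, beside 22.0% and 25.8% of all genes. Mmab, an enzyme of adenosylcobalamin synthesis, fell by 1.71 on the log2 scale (SE 0.14, edgeR adjusted p = 5.3e-17), rose by 1.52 ± 0.14 with chow reversal at 24 weeks, and was at 0.07, 0.37 and 0.25 ± 0.13 with semaglutide at 8, 16 and 24 weeks (edgeR adjusted p = 0.84, 0.047 and 0.17), so that it passed at 16 weeks.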

How the data were processed

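The authors sequenced liver RNA from 77 mice, prepared libraries with a kit that keeps strand, and deposited a table of estimated counts per gene. The submitters' processing notes name STAR 2.7.3a, Salmon 1.2.0, FastQC 0.11.9, Picard, DESeq2 and the GRCm38 build, without settings. The authors' counts were not normalized, and 7.55% of the values were fractional, so they were rounded for the tests. Gene symbols and positions came from a table of Ensembl identifiers and the GENCODE annotation of GRCm38, and 260 of 55487 identifiers without a symbol held 0.0155% of the counts. Of the 10 listed hepatocyte markers 9 were matched and tested.

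Groups came from the sample labels. Genes were filtered with filterByExpr, scaled by TMM and fitted in 1 model of 10 groups with edgeR 4.0.16 in R 4.3.3 (limma 3.58.1), common dispersion 0.066. Intervals are 1.96 standard errors to either side. Exact permutation tests of single values ran in Python 3.11.15 (numpy 2.4.6, pandas 2.3.3). Mice were separate animals, and the closest pair of libraries in a group differed by 10.9 times the sampling noise (chi-square over its degrees of freedom), so none was counted as a duplicate.

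The rule for named genes took the 9 genes in every comparison, Mat2a, and for each of the 9 the 2 genes nearest in group means. From each pathway list the rule took up to 2 genes with the smallest p in vehicle against chow and up to 2 in a joint test of the 3 semaglutide effects. The genes and lists were chosen with earlier results of these data known. The alternatives were RLE size factors, library totals, no filter on low counts, a block on runs of library numbers, leaving out the second run (3 libraries), fitting only the compared groups, and DESeq2 1.42.0. Leaving out single mice and the scale relative to hepatocyte markers were chosen after seeing the data. On data simulated for semaglutide against vehicle at 24 weeks (14669 genes), edgeR recovered 26 of 49 genes changed 1.5-fold, 39 of 49 changed 2-fold, 46 of 48 changed 4-fold and 50 of 50 changed 8-fold, and called 7 of 14473 unchanged genes. A gene that the rule for named genes took is not reported here.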

Additional observations from a re-analysis of the deposited data

Results flagged for a closer look

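Among 100 sets of values, each a gene (the 9 genes or Mat2a) in a group of mice, 10 held a mouse whose gap to the nearest other mouse passed Dixon's 95% critical value for the group's size. Chance alone gives about 1 in 20 sets. In chow-fed mice the highest Mat1a level was 5047 CPM, with the next mouse at 3356 CPM, and the highest Gnmt level was 3334 CPM, with the next at 2413 CPM. With semaglutide the lowest Mat1a level at 8 weeks was 1836 CPM, with the next at 2568 CPM, and the highest Nnmt level at 24 weeks was 407.0 CPM, with the next at 183.7 CPM. In vehicle mice at 16 weeks the highest Cbs level was 800.3 CPM, with the next at 498.9 CPM.

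After chow reversal the highest Cbs level at 8 weeks was 959.4 CPM, with the next mouse at 677.5 CPM. At 16 weeks the highest Bhmt level was 6713 CPM and the next 4650 CPM, the highest Pemt level was 396.6 CPM and the next 324.7 CPM, and the lowest Shmt1 level was 142.3 CPM with the next at 187.8 CPM. At 24 weeks the highest Pemt level was 406.7 CPM, with the next at 306.0 CPM. Each such mouse was left out in turn, which changed 14 of 252 calls, 12 lost and 2 gained. The gained calls were Cth for semaglutide at 24 weeks, given above, and Cbs for semaglutide at 16 weeks without vehicle mouse 2 (0.63, edgeR adjusted p = 0.014).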

How the results depend on the processing

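Over 99 fold changes of the 9 genes, none reversed a called direction under any alternative. DESeq2 kept all 99 on the same side of the threshold, RLE size factors 97, a block on runs of library numbers 94, leaving out the second run 94, no filter on low counts 92, fitting only the compared groups 89 and library totals 84. The calls that moved were mostly those of semaglutide at 8 and 16 weeks. At 8 weeks 5 called genes became 3 with library totals, 3 without a filter and 3 with the block. The 3 with library totals were Gnmt and Ahcy, higher, and Bhmt, lower. At 16 weeks 6 became 3 with library totals and 2 where the fit held only the compared groups. Against chow reversal, 4 called at 16 weeks fell in number to 2 where the fit held only those groups. The cause was not tested.

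Of the pathway lists, 7 genes called with semaglutide at 8 weeks rose in number to 24 where the fit held only those groups, and 21 at 16 weeks became 13 without a filter, 11 with the block, 12 without the second run and 5 with only the compared groups. As a difference of medians the Mat1a to Mat2a ratio was 0.39 higher with semaglutide at 8 weeks (exact permutation adjusted p = 0.11) and 0.53 at 16 weeks (exact permutation adjusted p = 0.065). Relative to the hepatocyte markers 3 genes were called for vehicle against chow (Gnmt and Cth lower, Nnmt higher) in place of 8, 2, 1 and 1 for semaglutide at 8, 16 and 24 weeks (Bhmt and Pemt lower, Gnmt higher, Bhmt lower) and 2, 3 and 2 for chow reversal (Gnmt and Cth higher at each time, Nnmt lower at 16 weeks), since a change shared with the markers is removed by construction. Of the genes called higher with semaglutide in CPM, Gnmt at 16 weeks was the one still called. That scale also came with a different test on the compared groups only, and its part in the lower counts was not tested. Leaving out single mice gave 3 to 4 called genes for semaglutide against chow. With library totals the median of all genes was 0.40 for vehicle against chow in place of -0.02, and higher genes made up 89.8% of calls for vehicle against chow in place of 54.1%, and 12.7%, 13.1% and 10.5% for semaglutide against vehicle in place of 39%, 52.6% and 44.2%. For chow reversal against vehicle these shares were 10.1%, 10.5% and 11.2% in place of 44.3%, 42.7% and 47%. No paired analysis was possible because each mouse gave 1 liver and the replicate numbers pair no mice. At this number of mice changes of 1.5-fold were recovered about as often as missed in simulated data, so a gene that did not pass may still differ.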

Other observations

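For each of the 9 genes the group means of log2 CPM, centred on their own mean, were set against those of 11863 genes over the 10 groups, and the gene with the smallest root mean square difference was taken as the nearest. Mat1a ran closest to Serpind1 and Serpinc1, which encode plasma protease inhibitors of hepatocytes, each at 0.046 log2 units, over a range of 0.85 in Mat1a itself. Ahcy ran closest to Alb, the albumin gene (0.051), and to Gls2, the liver glutaminase (0.054). Shmt1 ran closest to Ftcd, which feeds the folate pool from histidine (0.058), and Arg1, the arginase of the urea cycle (0.059). Pemt ran closest to Pcyt2 (0.047) and Cbs to Sdc4, a cell surface proteoglycan (0.071).

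Bhmt lay 0.089 from Tstd1, with the next gene, Cyp2c55, at 0.195, over a Bhmt range of 1.76. Cth lay 0.131 from Stard4, a sterol transfer protein gene, over a range of 2.08. Gnmt lay 0.141 from Epop and Nnmt 0.137 from Dctpp1. Among the 9 genes the closest pairs were Mat1a with Shmt1 (0.066) and Pemt with Shmt1 (0.079), and the farthest was Cth with Nnmt (0.699). Genes that share libraries are not independent, so these values are a description.

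Other genes of the lists differed between vehicle and chow-fed mice in either direction, or did not pass. Smox, the spermine oxidase, was higher by 1.53 ± 0.23 in vehicle than in chow-fed mice (edgeR adjusted p = 3.9e-08) and fell with semaglutide by -0.76, -0.75 and -0.91 (edgeR adjusted p = 0.018, 0.012 and 0.00099). Gatm, the first enzyme of creatine synthesis, rose by 0.95 ± 0.18 (edgeR adjusted p = 6.3e-06), and Slc44a2, a choline transporter-like protein gene, by 1.22 ± 0.15 (edgeR adjusted p = 2.7e-10). Inmt, which methylates indoles, fell by 0.78 on the log2 scale (edgeR adjusted p = 0.0099) and was higher with semaglutide by 1.14 and 1.06 at 16 and 24 weeks (edgeR adjusted p = 0.0014 and 0.0015). Aox1, an aldehyde oxidase that also acts on the product of Nnmt, did not pass in vehicle against chow (-0.17 ± 0.18, edgeR adjusted p = 0.45). It fell with semaglutide by -0.50 and -0.65 at 16 and 24 weeks (edgeR adjusted p = 0.038 and 0.0036), where chow reversal left it at 0.20 and 0.00. Aox3, in the same list of nicotinamide genes, was at -1.54 ± 0.21 in vehicle against chow (edgeR adjusted p = 2.2e-09). With semaglutide Aox3 was at 0.18, 0.05 and 0.26 at 8, 16 and 24 weeks (edgeR adjusted p = 0.66, 0.9 and 0.34). After chow reversal Aox3 was called higher at 16 and 24 weeks (edgeR adjusted p = 0.00033 and 1.5e-05). At 8 weeks it did not pass (edgeR adjusted p = 0.063).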
